A study of Mus musculus with 16 samples.

Results

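The contrast described here asks, gene by gene, whether homozygosity for the Klotho mutation goes with a different change in male and in female mouse kidneys. It is the KlKl minus control difference of the males minus the same difference of the females, so a positive value means that the KlKl animals stood higher, relative to controls, in males than in females. It was computed for 6116 of the 17890 nuclear protein-coding genes in a table of 30277 genes. These are the genes with a TPM (a length-scaled expression value) of at least 1 in at least 4 of the 16 libraries, so a gene expressed in 1 group alone could enter. Genes whose difference was opposed between the sexes, or limited to 1 sex, are described in most detail.

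The libraries were made from polyadenylated RNA of kidneys that were perfused, dissected and flash-frozen, in 4 groups of 4 mice. All animals were C57Bl/6J mice of a line on which the recessive Kl mutation had been made congenic. KlKl animals carried the mutation on both alleles, in every cell of the body and not in the kidney alone, and were labelled with renal disease, whereas controls were labelled with healthy renal function. Male controls 1 and 2 and all 4 female controls were heterozygous (+/Kl), and male controls 3 and 4 were wild type (+/+). Male controls were 46 to 48 days old and male KlKl 1 to 3 were 46 to 49, with male KlKl 4 at 59 days. Female controls 1, 2 and 4 were 47 to 48 days old and female control 3 was 57, and female KlKl 1 to 3 were 47 to 48 and female KlKl 4 was 52. In each group replicates 1 and 2 have library names beginning CFK, and replicates 3 and 4 names beginning CFdk. What the 2 name series stand for is not given in the sources used here, and libraries are treated as separate animals because their names differ.

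Klotho is a membrane protein of the kidney tubule that pairs with FGF receptors to form the receptor for FGF23, a hormone that lowers phosphate reabsorption and the synthesis of active vitamin D. The mouse proximal tubule is among the most sexually dimorphic epithelia known. Androgens maintain a large male programme of transporters and steroid- and drug-metabolising enzymes there, and a smaller set of genes, among them the prolactin receptor gene and the amino acid transporter gene Slc7a12, is expressed more in females.

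Of the 12 genes described first below, 10 were matched by symbol to 13 promoter windows in RefSeq (GRCm38.p6, 250 bases before to 50 after each start site). Mgst1, the gene with the smallest p in the contrast, is one of 3 that hold TGACNNNGC on either strand, the core of the antioxidant response element bound by NRF2. The others are Tmem37 and Ccn1, and 12.4% of all 32851 promoter windows hold the same core. The 250 bases before the start site of each are printed 5′ to 3′ on the gene's own strand, with the matches in capitals, so that the 3 can be compared.
Mgst1, chr6:138140277-138140526, plus strand, match at -56 to -48: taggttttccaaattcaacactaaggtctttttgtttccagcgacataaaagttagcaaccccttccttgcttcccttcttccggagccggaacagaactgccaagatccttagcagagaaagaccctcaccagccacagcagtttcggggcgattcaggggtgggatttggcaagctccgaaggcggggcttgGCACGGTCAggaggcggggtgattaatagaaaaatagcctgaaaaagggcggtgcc
Tmem37, chr1:120073781-120074030, minus strand, matches at -146 to -138 and -105 to -97: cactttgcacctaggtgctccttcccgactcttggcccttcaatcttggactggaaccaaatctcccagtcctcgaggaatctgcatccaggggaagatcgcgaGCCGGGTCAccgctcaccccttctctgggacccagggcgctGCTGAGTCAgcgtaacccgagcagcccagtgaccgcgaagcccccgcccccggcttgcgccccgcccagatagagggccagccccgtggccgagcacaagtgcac
Ccn1, chr3:145649986-145650235, minus strand, match at -62 to -54: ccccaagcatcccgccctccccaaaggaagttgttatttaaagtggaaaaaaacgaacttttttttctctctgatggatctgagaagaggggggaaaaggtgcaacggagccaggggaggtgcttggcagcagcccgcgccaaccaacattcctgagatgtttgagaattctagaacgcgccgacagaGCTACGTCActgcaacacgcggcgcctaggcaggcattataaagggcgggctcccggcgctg
The 3 genes were not alike, since Mgst1 and Tmem37 were higher and Ccn1 lower in KlKl males than in control males. Positions count back from the start site, the matches describe letters only, and the core overlaps no TTCNNNGAA, the STAT-type palindrome that was also searched. TTCNNNGAA was found in 8.3% of all windows and in windows of 2 of the 10 genes, Prlr and Mgst1.

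The labels held in every library. In males Kl was 9.74 ± 1.3 scaled TPM with a normal allele and 0.758 ± 0.42 without one. In females the same means were 4.03 ± 1.7 and 0.156 ± 0.092 (SD over 4 libraries), and neither sex showed any overlap. Xist, the RNA of the inactive X chromosome, stood at 10.7 to 18.3 in females and 0.0608 to 0.409 in males, and the Y-linked Ddx3y at 1.88 to 2.7 in males and at most 0.00652 in females. Depth, as reads recovered from the TPM, was 13030241 to 20109426 in males and 8209542 to 14505437 in females. Female control 3, the shallowest, carried 7.06% of its TPM in nuclear ribosomal RNA against 0.484% to 1.36% elsewhere. The median standard deviation of a gene within a group, on the log2(TPM + 1) scale, was 0.188 in female controls, 0.139 in male KlKl, 0.088 in male controls and 0.092 in female KlKl.

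No gene passed the test of a difference between the sexes. By limma with Benjamini-Hochberg adjustment 0 of 6116 genes (0%) had an adjusted p under 0.05, and limma voom on the recovered reads also called 0. At an unadjusted p under 0.05 there were 141 genes (2.31%), 60 positive and 81 negative, and voom gave 355 of 14046 (2.53%). Both shares are below the 0.05 that chance gives on average when no gene differs. The median difference of the sexes over all tested genes was -0.02 and the median standard error of a gene 0.151, both on the log2(scaled TPM + 1) scale used for every difference below. The 2 parts of the contrast were as sparse, with Kl the 1 gene past the threshold in males (0.0164%) and in females (0.0164%). On the deposited TPM without rescaling 13 genes passed in males, 11 higher and 2 lower, beside 0 higher and 1 lower after scaling. At an unadjusted p under 0.05 there were 384 genes (6.28%) in males and 160 (2.62%) in females. The genes below are therefore given as values only, first those with a small unadjusted p in the contrast and then members of gene lists.

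At an unadjusted p under 0.01 the contrast held 27 genes (0.441%), 15 positive and 12 negative. That share is below the 0.01 that chance gives on average when no gene differs, so the 27 are not an excess. They were sorted by size alone. In 5 genes the sexes were opposed, with differences of at least 0.25 in size and unlike sign. In 7 the difference was limited to males, at 0.5 or more in males and under 0.25 in females, and 0 genes were limited to females by the mirrored rule. The other 15 were unequal without meeting either rule. All 5 opposed genes were higher in KlKl than control males and lower in KlKl than control females. Without female control 3 the female difference was -0.138 for Slc7a12, -0.121 for Rdh16f2, -0.118 for Prlr and -0.167 for Tmem37. These fall short of the 0.25 of the rule, and only Apom, at -0.41, still met it. The class of the other opposed genes thus rested on that library. The selection of the 27 genes used the contrast itself, so the counts describe the genes and test nothing. In whole-kidney RNA fewer cells of a type and less RNA per cell cannot be told apart for any gene below.

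**Figure D1:**
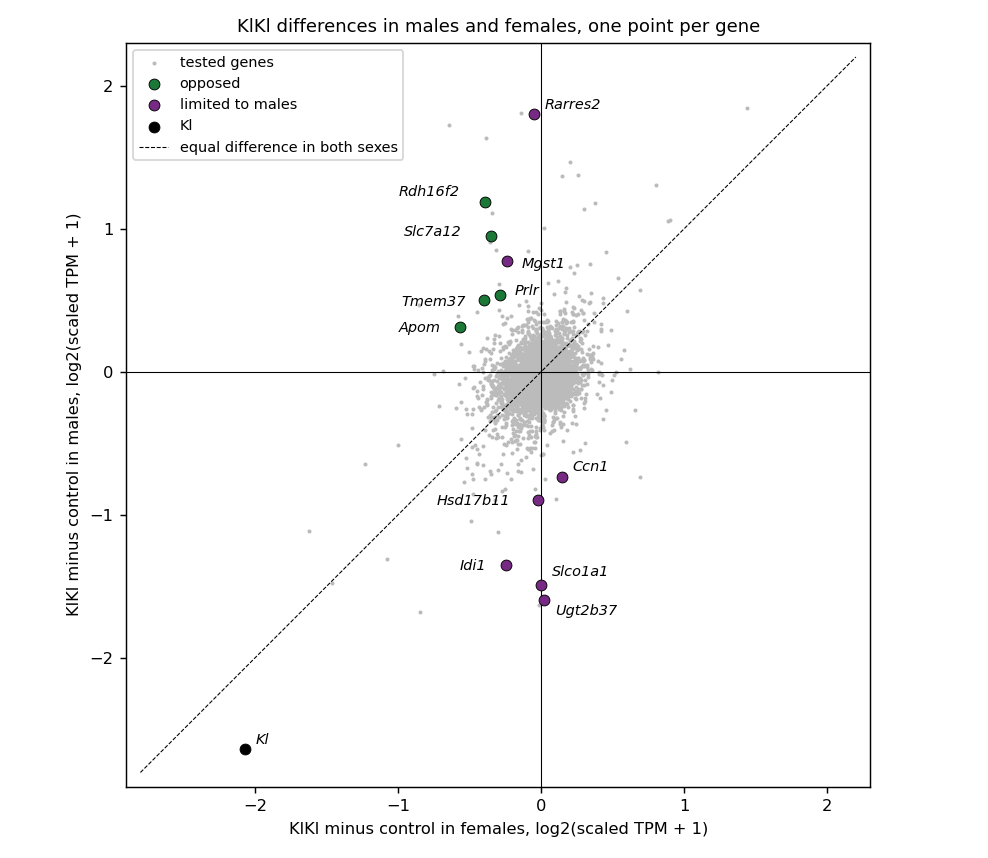
Each point is 1 of the 6116 tested genes, with the KlKl minus control difference in females on the horizontal axis and in males on the vertical axis, both on the log2(scaled TPM + 1) scale. The 5 opposed genes lie in the upper left, the 7 male-limited genes near the vertical axis, and Kl at -2.07 and -2.64 near the dashed line of equal differences.

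Slc7a12 encodes an amino acid transporter of the SLC7 family and lies on chromosome 3 at 14545757 to 14570891 (mm39, plus strand). Its scaled TPM was 0.131, 0.172, 0.283 and 0.349 in male controls 1 to 4 and 0.904, 1.16, 1.51 and 2.10 in male KlKl 1 to 4. In female controls it was 2.28, 1.55, 3.44 and 0.739, and in female KlKl 1.35, 1.18, 0.968 and 1.41. Every KlKl male lay above every control male, while the female groups overlapped because female control 4 lay below all KlKl females. The difference was 0.95 in males and -0.35 in females, and 1.30 between the sexes (SE 0.30, 95% interval 0.67 to 1.93, limma adjusted p = 0.987). Mean levels were 0.234 in male controls and 2.00 in female controls, against 1.42 and 1.23 in the KlKl groups.

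Rdh16f2, a member of the retinol dehydrogenase 16 family of short-chain dehydrogenases (chromosome 10, 127702343 to 127713187, mm39, plus strand), had the same form at a higher level. In control males it was 7.29, 5.40, 11.6 and 12.3 and in KlKl males 19.6, 22.5, 21.4 and 21 scaled TPM. Control females stood at 28.1, 30.1, 56.8 and 21.2 and KlKl females at 29.5, 26.6, 19.6 and 21.7. The male groups were apart and the KlKl males lay close together, near the lower KlKl females, whereas the female groups overlapped and female control 3 was the highest of all libraries. The contrast was 1.58 (SE 0.37, 95% interval 0.80 to 2.36, adjusted p = 0.987), or 1.31 without female control 3. Close relatives of this gene lie in the same family, so the assignment of reads to it is uncertain.

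Prlr, the receptor through which prolactin activates STAT5, lies on chromosome 15 at 10177324 to 10349267 (mm39, plus strand) and is the third opposed gene. In males it was 0.180, 0.0871, 0.188 and 0.449 scaled TPM in controls and 0.541, 0.457, 1.22 and 0.964 in KlKl. In females it was 1.5, 1.53, 2.95 and 1.39 in controls and 1.31, 1.24, 1.07 and 1.53 in KlKl. The lowest KlKl male, at 0.457, was just above the highest control male, and the female groups overlapped. Female control 3, at 2.95, stood apart from the other control females, which spanned 1.39 to 1.53 beside 1.07 to 1.53 in KlKl females. The female difference thus rested largely on that library. The contrast was 0.82 (SE 0.22, 95% interval 0.35 to 1.29, adjusted p = 1.0). Prlr has long introns and a low TPM, which the added 1 compresses, and its contrast was 1.91 with 0.1 added and 2.42 by voom on reads, which numbered 297 to 4583 per library.

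Apom encodes apolipoprotein M, the carrier of sphingosine-1-phosphate, and is made by liver and proximal tubule (chromosome 17, 35347973 to 35351027, mm39, minus strand). It was the 1 opposed gene with higher levels in control males than in control females, at 12.1 ± 2.2 and 8.32 ± 2.3 scaled TPM (SD, n = 4). Male controls stood at 10.2, 11.8, 15.3 and 11.1 and KlKl males at 13.9, 16.6, 13.8 and 16.4, which overlap. Female controls stood at 6.88, 7.02, 11.8 and 7.61 and KlKl females at 4.33, 3.97, 7.96 and 5.04, which overlap as well. The difference was 0.31 in males and -0.57 in females, with a contrast of 0.88 (SE 0.26, adjusted p = 1.0).

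Tmem37, which encodes a transmembrane protein related to calcium channel gamma subunits (chromosome 1, 119995107 to 120001805, mm39, minus strand), completed the opposed set. Control males stood at 6.79, 6.12, 5.95 and 5.92 and KlKl males at 7.80, 8.89, 12.7 and 7.94 scaled TPM, without overlap. Control females stood at 9.83, 11, 21.9 and 12.3 and KlKl females at 8.38, 10.0, 10.0 and 10.5, which overlap. The contrast was 0.90 (SE 0.27, adjusted p = 1.0). It was 0.67 without female control 3, the library at 21.9. That library carried most of the female difference, which was under 0.25 in size without it.

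**Figure D2:**
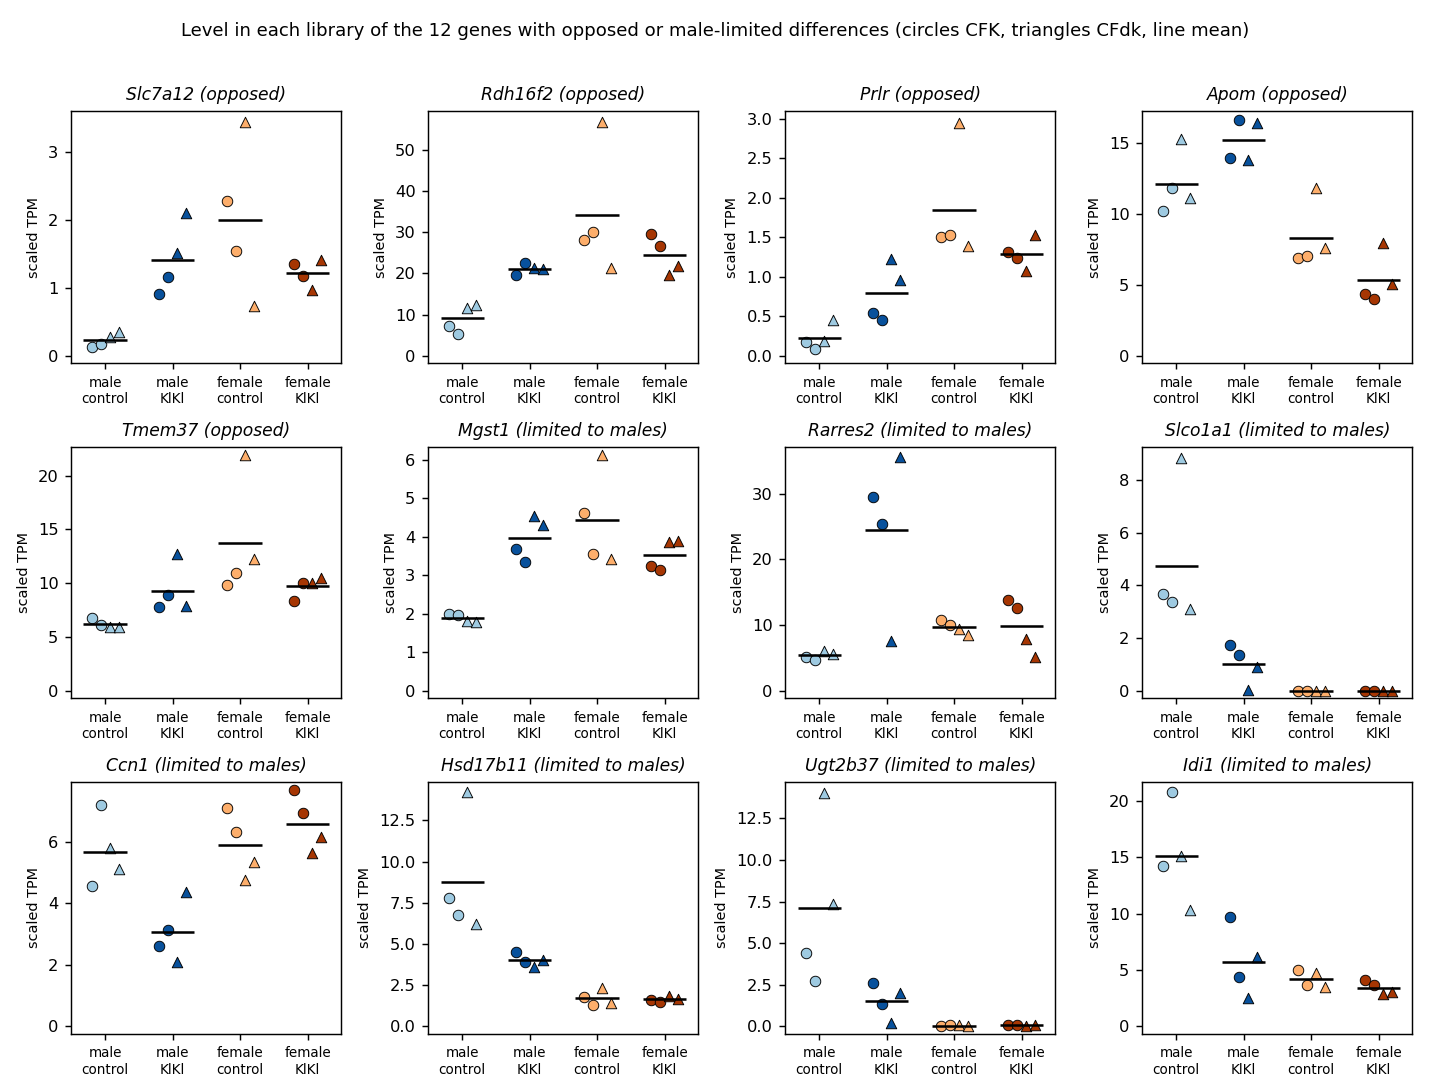
Scaled TPM of the 5 opposed and 7 male-limited genes in each of the 16 libraries, with circles for CFK names, triangles for CFdk names and a line at each group mean. Slc7a12, Rdh16f2, Prlr, Tmem37 and Mgst1 separate KlKl from control males and overlap in females, and female control 3 is the highest female library for all 5.

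Among the male-limited genes Mgst1 came nearest to the threshold. It encodes microsomal glutathione S-transferase 1, a membrane enzyme that conjugates glutathione to electrophiles and reduces lipid hydroperoxides (chromosome 6, 138117314 to 138133754, mm39, plus strand). Scaled TPM was 2.00, 1.96, 1.81 and 1.78 in control males and 3.68, 3.34, 4.53 and 4.31 in KlKl males. It was 4.62, 3.56, 6.12 and 3.42 in control females and 3.23, 3.14, 3.87 and 3.88 in KlKl females. Control males were tight and below every other library, and the mean of KlKl males was 2.10-fold that of control males. The female groups overlapped. The difference was 0.78 in males (adjusted p = 0.0551) and -0.24 in females (adjusted p = 0.977), and the contrast 1.02 (SE 0.18, 95% interval 0.63 to 1.4, limma adjusted p = 0.262). Leaving out each library in turn kept the contrast between 0.88 and 1.11.

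Rarres2 encodes chemerin, a secreted chemoattractant for macrophages and dendritic cells (chromosome 6, 48546630 to 48549724, mm39, minus strand). Control males stood at 5.24, 4.79, 6.13 and 5.67 scaled TPM and KlKl males at 29.5, 25.4, 7.63 and 35.6. Control females stood at 10.8, 10.1, 9.38 and 8.51 and KlKl females at 13.9, 12.6, 7.93 and 5.24. The male groups did not overlap, but male KlKl 3 was far below the other KlKl males, and in the KlKl females both CFK libraries lay above and both CFdk libraries below the controls. The difference was 1.80 in males and -0.05 in females, and the contrast 1.85 (SE 0.50, 95% interval 0.80 to 2.90, adjusted p = 1.0). Without male KlKl 3 it was 2.31 and passed (adjusted p = 0.0146), and in the CFK libraries alone it was 1.93 and passed (adjusted p = 0.00528). In the CFdk libraries alone, to which male KlKl 3 belongs, 0 genes passed. The female difference averages name series that lay on either side of the controls.

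The 5 male-limited genes that were lower in KlKl males began with Slco1a1, an androgen-dependent organic anion transporter gene of the proximal tubule (chromosome 6, 141853008 to 141892689, mm39, minus strand). Control males stood at 3.69, 3.36, 8.82 and 3.09 scaled TPM and KlKl males at 1.74, 1.38, 0.0576 and 0.919, without overlap. All 8 female libraries lay between 0.00167 and 0.0161, which is 1 to 9 reads. A decrease in females could not have been measured at that level, so the limit to males describes where the gene was expressed. The contrast was -1.49 (SE 0.37, 95% interval -2.28 to -0.70, adjusted p = 1.0), -0.83 in the CFK libraries and -2.14 in the CFdk libraries.

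Ugt2b37, one of a cluster of similar UDP-glucuronosyltransferase genes that attach glucuronic acid to steroids and drugs, behaved alike (chromosome 5, 87388352 to 87402664, mm39, minus strand). Control males stood at 4.43, 2.72, 14.0 and 7.38 scaled TPM and KlKl males at 2.60, 1.34, 0.188 and 2.02. Females held 0.0223 to 0.103, 4 to 23 reads, again too few to show a decrease. The male groups were separated by a narrow margin, 2.60 against 2.72, and the highest controls were the wild-type males 3 and 4. The contrast was -1.62 (SE 0.49, adjusted p = 1.0), and -0.96 with heterozygous controls alone. Reads may be split among members of the cluster, which makes the level uncertain.

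Hsd17b11 and Ccn1 were limited to males although females expressed them. Hsd17b11 encodes a hydroxysteroid dehydrogenase found on lipid droplets (chromosome 5, 104137628 to 104169786, mm39, minus strand). It stood at 7.80, 6.77, 14.2 and 6.20 scaled TPM in control males and 4.53, 3.91, 3.61 and 4.02 in KlKl males, without overlap. Female controls held 1.80, 1.32, 2.36 and 1.44 and female KlKl 1.63, 1.51, 1.84 and 1.67, which overlap throughout. The contrast was -0.87 (SE 0.25, 95% interval -1.41 to -0.33, adjusted p = 1.0), from -0.89 in males and -0.02 in females.

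Ccn1, which encodes a matricellular protein induced by growth factors and by YAP (chromosome 3, 145352731 to 145355737, mm39, minus strand), had similar levels in both control groups. The values of control males were 4.55, 7.19, 5.81 and 5.12 scaled TPM and of KlKl males 2.60, 3.14, 2.10 and 4.38. Control females stood at 7.10, 6.32, 4.76 and 5.34 and KlKl females at 7.67, 6.92, 5.62 and 6.14. KlKl males were the lowest 4 of all 16 libraries, and the female groups overlapped with KlKl slightly higher. The contrast was -0.88 (SE 0.23, 95% interval -1.37 to -0.39, adjusted p = 1.0), with -0.91 in the CFK and -0.84 in the CFdk libraries.

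Idi1, isopentenyl-diphosphate isomerase of the mevalonate pathway (chromosome 13, 8935537 to 8942488, mm39, plus strand), was the last of the set. It was 14.2, 20.8, 15.1 and 10.3 scaled TPM in control and 9.75, 4.35, 2.50 and 6.12 in KlKl males, which are apart by a small margin. Control females stood at 5.05, 3.71, 4.74 and 3.49 and KlKl females at 4.08, 3.68, 2.89 and 3.03, which overlap. The contrast was -1.11 (SE 0.37, 95% interval -1.89 to -0.32, adjusted p = 1.0), with -1.35 in males and -0.24 in females.

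**Figure D3:**
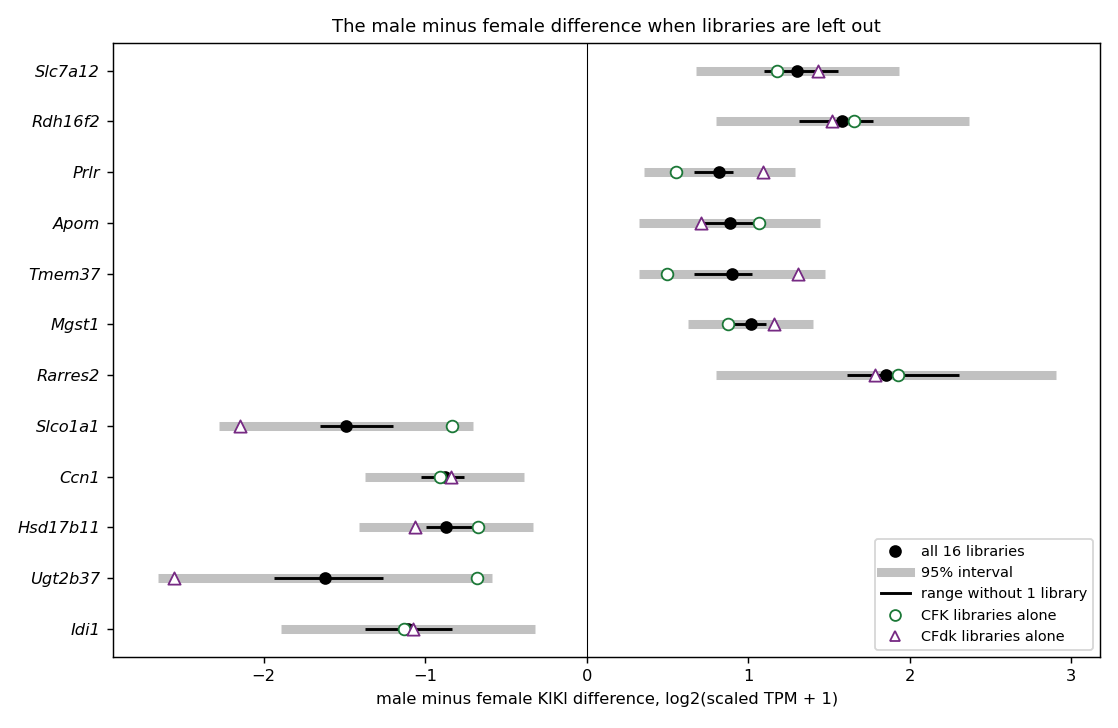
The male minus female difference of the same 12 genes on the log2(scaled TPM + 1) scale, with the 95% interval in grey, the range when 1 library is left out as a line, and open symbols for each name series alone. All 12 keep their sign in every setting drawn. They were selected on this contrast in the same libraries, so the kept sign is not independent support. Slco1a1 and Ugt2b37 differ most between the series, at -0.83 against -2.14 and -0.68 against -2.55.

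Several of the 15 unequal genes differed on the female side without overlap. Pycard, the ASC adaptor of inflammasomes, stood at 4.20, 4.11, 5.17 and 3.92 scaled TPM in control females and 3.23, 3.61, 3.06 and 2.86 in KlKl females. Its male groups overlapped, at 2.07 to 2.31 in controls and 2.24 to 2.70 in KlKl, and the contrast was 0.48 (SE 0.11, adjusted p = 0.987). Dynlt1f, a dynein light chain gene with near-identical neighbours, was likewise lower without overlap in KlKl females (1.53 to 1.67 against 1.82 to 2.51) and overlapped in males, with a contrast of 0.29.

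In the other direction, Tnfrsf12a, the receptor of the cytokine TWEAK, was 3.20 to 3.94 scaled TPM in control and 4.03 to 5.07 in KlKl females. Males held 4.82 to 6.45 in controls and 3.76 to 5.20 in KlKl, which overlap, and the contrast was -0.48 (SE 0.14, adjusted p = 1.0). Pes1, a ribosome biogenesis factor gene, and Mesd, a chaperone gene for LRP receptors, were also higher without overlap in KlKl females and overlapped in males, with contrasts of -0.23 and -0.29. These female differences were small, at most 0.35 in size, which is why none met the rule for a difference limited to females.

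Other unequal genes lay on the male side. Trib1, a pseudokinase gene, was 1.22 to 1.33 scaled TPM in control and 1.89 to 2.46 in KlKl males, without overlap, and the contrast was 0.46 (SE 0.15). Foxc2, a forkhead transcription factor gene, stood at 1.21 to 1.28 in control and 1.57 to 1.89 in KlKl males, with a contrast of 0.35 (SE 0.10). Ybx1, which encodes an RNA- and DNA-binding cold shock protein, was 28.5 to 35.2 in control and 22.5 to 25.6 in KlKl males, with a contrast of -0.58 (SE 0.20). All 3 had overlapping female groups and an adjusted p of 1.0 in the contrast.

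Over all tested genes, 0 were higher without overlap in KlKl males and lower without overlap in KlKl females, and 0 showed the reverse. KlKl males were apart from control males in 107 genes that were higher (1.75%) and 214 that were lower (3.5%), and KlKl females from control females in 41 higher (0.67%) and 85 lower (1.39%). Both sexes were apart in the same direction in 8 of the 6116 tested genes. How many would be so by chance was not worked out, for these or for the 0 opposed genes. Serpina1a, which encodes an alpha-1 antitrypsin and has near-identical copies, was the 1 higher in both, with differences of 1.84 in males and 1.44 in females and a contrast of 0.40 (SE 0.46). The 7 lower in both were Kl, Usp8, Atp6ap1, Kap, Oxct1, Slc52a2 and Gorasp2, of which all but Kl were named after their values were seen. Opposed differences thus came with overlapping groups in at least 1 sex for every gene tested.

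Kl itself differed by -2.64 in males (adjusted p = 3.05e-06) and -2.07 in females (adjusted p = 9.88e-05). The contrast of -0.57 (SE 0.28, adjusted p = 1.0) depended on the scale, at 0.29 with 0.1 added to the TPM, 0.06 with weights for libraries and 0.81 by voom on reads. Mean KlKl levels were 0.0778 of the control mean in males and 0.0388 in females, from a control level that was lower in females. The sign of a sex difference in the loss of Kl RNA is thus not fixed by these values.

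Lists of genes were compared by counts beside all tested genes, of which 43.5% had a positive and 56.5% a negative contrast, with a median of -0.02. The KlKl difference itself was positive in 37.5% and negative in 62.5% of all tested genes in males, and positive in 46.6% and negative in 53.4% in females. Among 13 tested androgen-responsive or male-biased genes of the proximal tubule (16 listed), 1 was positive and 12 negative, with a median of -0.58 and 0 members passing. The median difference was -0.75 in males and -0.07 in females. Slco1a1, already selected on this contrast, is among the members. In 7 of the 13 both female group means were under 1 scaled TPM, where a decrease in females could hardly have been measured, so the counts and medians do not show a difference limited to males. Hsd11b1, which regenerates active glucocorticoid, differed by -0.54 in males and -0.09 in females. Acsm3, a medium-chain acyl-CoA synthetase gene, stood at 23.9, 29.9, 25.0 and 20.4 scaled TPM in control males and 17.1, 15.1, 0.226 and 12.2 in KlKl males, with all females at or below 0.202. Slc22a28, an organic anion transporter gene, stood at 1.5 to 2.00 in control males and 1.36, 1.19, 0.141 and 1.19 in KlKl males. Male KlKl 3 was the lowest KlKl male for these genes and for Slco1a1, Ugt2b37 and Kap.

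That library set much of the size of the male-biased list. The summed level of its tested members was 5750 to 7866 scaled TPM in control males and 5635, 3927, 634.5 and 4015 in male KlKl 1 to 4, and 2043 to 6256 in control and 841.7 to 1998 in KlKl females. Without male KlKl 3 the median contrast was -0.21, with 3 positive and 10 negative. It was -0.19 in the CFK libraries and -0.96 in the CFdk libraries, to which male KlKl 3 belongs. Kap, the kidney androgen-regulated protein gene that makes up most of that sum, was lower in both sexes and its contrast of -0.24 changed sign to 0.50 without male KlKl 3. Summed proximal tubule markers were 1448 to 1959 in control males, 1036 to 1849 in KlKl males, 970.7 to 1872 in control females and 1467 to 1715 in KlKl females, and their part in the result was not tested.

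Female-biased proximal tubule genes had the opposite sign, with 7 of 7 tested members (10 listed) positive, a median of 0.82 and 0 passing. The members include Slc7a12 and Prlr, already selected on this contrast, and Prlr is the median, so the list is not separate support for them. The median difference was 0.42 in males and -0.45 in females. The KlKl difference was positive in 4 of the 7 members in males and in 1 in females. Akr1c18, Slc22a19 and Cyp2a4 were lower in KlKl of both sexes, at -0.51, -0.47 and -1.11 in males. Their contrasts were positive because the decrease was larger in females. Hao2, a peroxisomal hydroxyacid oxidase gene, stood at 8.90 to 20 scaled TPM in control males and 11.1 to 24.6 in KlKl males, and at 22 to 40.4 and 18.1 to 31.2 in females. Its groups overlapped in both sexes, with a contrast of 0.87 (SE 0.38). Cyp4a14, a fatty acid hydroxylase gene, had a contrast of 1.22 (SE 0.70), and 0.65 without male KlKl 3, which at 40.4 was the highest KlKl male. The list held 6 positive and 1 negative without female control 3, and 5 and 2 by voom.

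In the 5 tested hormone receptor and feedback genes, 3 were positive and 2 negative, with a median of 0.51, which was 0.29 without female control 3 and 0.13 in the CFdk libraries. Beside Prlr, the STAT5 feedback genes Socs2 and Cish differed by 0.04 and 0.04 in males and by -0.48 and -0.47 in females. Ghr, the growth hormone receptor gene, had a contrast of -0.03. Socs2 stood at 1.17, 1.42, 2.99 and 0.747 scaled TPM in control and 1.16, 0.917, 0.489 and 0.592 in KlKl females, so the groups overlapped through female control 4. Female control 3 was the highest, and its contrast of 0.51 (SE 0.28) was 0.29 without that library.

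Glutathione and NRF2 target genes held 15 positive and 8 negative of 23 tested members (27 listed), with a median of 0.14 and 0 passing. The positive members include Mgst1, already selected on this contrast. Gstt1, a theta-class glutathione transferase gene, had a contrast of 0.47 (SE 0.17), with differences of 0.31 in males and -0.17 in females. Nqo1, a quinone reductase gene and a standard NRF2 target, stood at 3.30, 2.63, 2.21 and 2.32 scaled TPM in control and 4.66, 3.05, 3.24 and 5.70 in KlKl males, with a contrast of 0.60 (SE 0.22). Its male groups overlapped, since male control 1 was above male KlKl 2 and 3. Gsta4, which conjugates lipid aldehydes, had a contrast of 0.37 (SE 0.14). Other NRF2 targets had either sign, with Hmox1, the haem oxygenase gene, at -0.47, Gclc and Gclm, the subunit genes of glutamate-cysteine ligase, at -0.09 each, and Gsr, the glutathione reductase gene, at 0.14. The list median was 0.09 without female control 3 and in the CFK libraries, 0.23 in the CFdk libraries, and 0.25 on the deposited TPM without rescaling, where 19 members were positive and 4 negative.

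**Figure D4:**
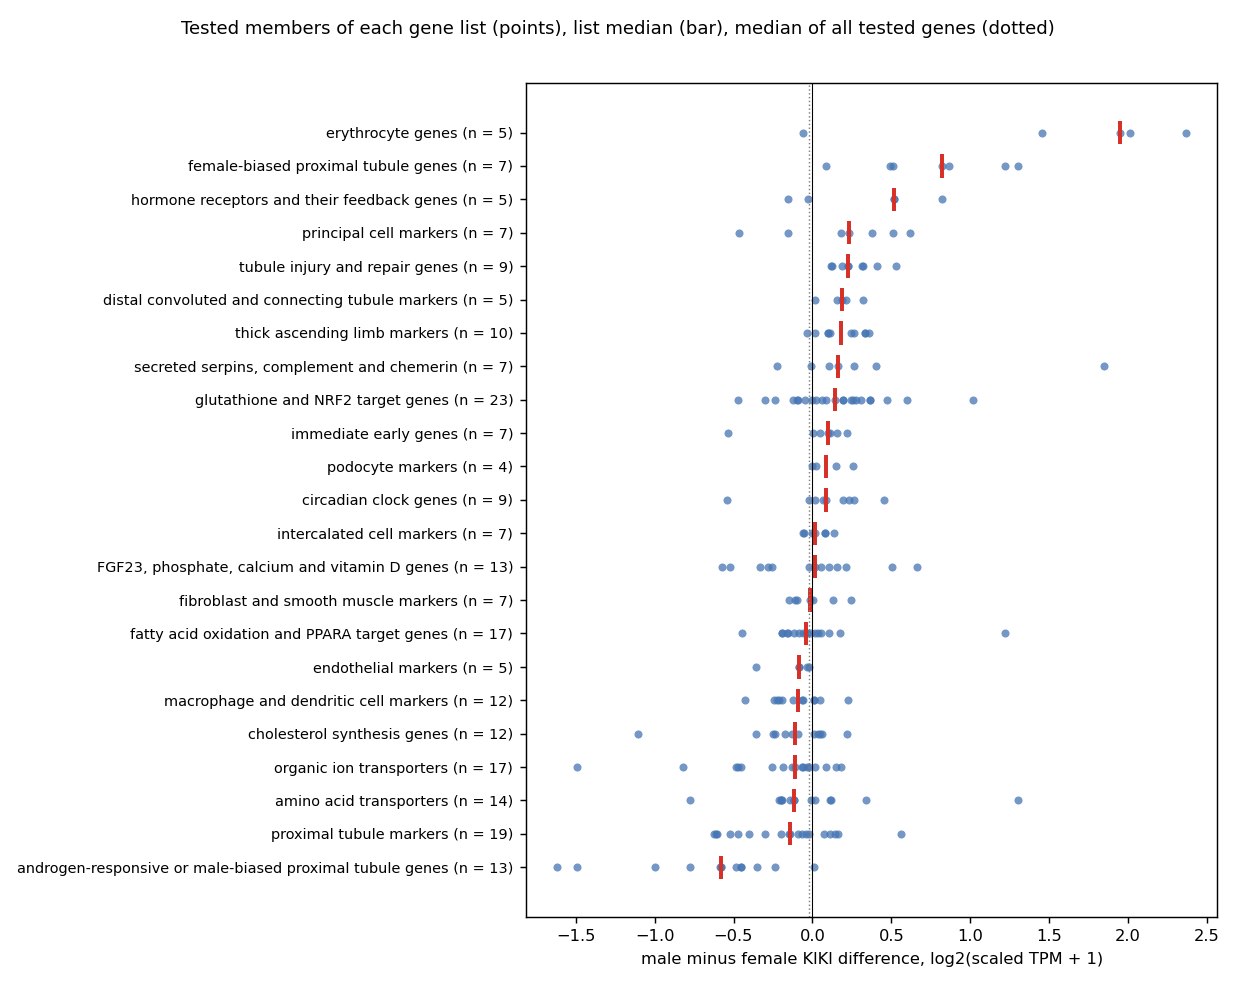
The male minus female difference of each tested member of the gene lists with at least 4 tested members, without the sex label genes (points), on the log2(scaled TPM + 1) scale, with the list median as a bar and the median of all tested genes, -0.02, as a dotted line. Erythrocyte and female-biased genes lie farthest to the right, with medians of 1.95 and 0.82, and male-biased genes farthest to the left, at -0.58.

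Tubule injury and repair genes were positive in 9 of 9 tested members (22 listed), with a median contrast of 0.23 and 0 passing, and the median difference was 0.34 in males and 0.13 in females. Spp1, which encodes osteopontin, stood at 86.3, 109, 67.4 and 104 scaled TPM in control and 139, 182, 182 and 109 in KlKl males, apart by a margin smaller than the rounding of the values. Females held 233 to 286 in controls and 271 to 344 in KlKl, and the contrast was 0.53 (SE 0.25). Lcn2, the gene of the injury marker NGAL, had a contrast of 0.41 and Vim, the vimentin gene, one of 0.22. In the CFK libraries alone the list had 6 positive and 3 negative with a median of 0.04, and in the CFdk libraries 9 positive with a median of 0.49.

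Genes of FGF23 signalling and of phosphate, calcium and vitamin D handling held 7 positive and 6 negative of 13 tested members (21 listed), with a median of 0.01. The division changed to 4 positive and 9 negative with heterozygous controls alone (median -0.20), and to 5 positive and 8 negative in the CFdk libraries (median -0.17) and without female control 3 (median -0.055). Without male KlKl 3 and on the deposited TPM without rescaling the median was 0.12. Slc34a1, the main sodium-phosphate cotransporter of the proximal tubule, stood at 182, 140, 179 and 153 scaled TPM in control and 116, 132, 125 and 124 in KlKl males, without overlap. Females held 148, 149, 89.1 and 145 in controls and 141, 142, 138 and 152 in KlKl. Female control 3 was far below the rest, and the contrast of -0.52 (SE 0.22) was -0.34 without it. Pth1r, the parathyroid hormone receptor gene, had a contrast of -0.33 (SE 0.15). Cyp24a1, which inactivates vitamin D hormone, differed by 2.40 in males and 1.73 in females, and Cyp27b1, which makes it, by 1.31 and 0.80. Their contrasts were 0.66 (SE 0.87) and 0.51 (SE 0.41), and neither passed the threshold.

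Organic ion transporters held 4 positive and 13 negative of 17 tested, Slco1a1 among the negative. Their median of -0.11 was 0.00 on the deposited TPM without rescaling and 0.03 without male KlKl 3. Slc22a12, the urate transporter gene, stood at 163, 138, 138 and 115 scaled TPM in control and 122, 101, 52.4 and 120 in KlKl males, which overlap, and at 17.3 to 35 in control and 25.5 to 32.6 in KlKl females. Its contrast was -0.82 (SE 0.35), or -0.54 without male KlKl 3. Slc22a7, another anion transporter gene, differed by about the same in both sexes, -1.48 and -1.46, with a contrast of -0.02 (SE 1.10). Cholesterol synthesis genes held 5 positive and 7 negative of 12, and the contrast of Idi1 was not shared by Sqle at 0.06 or Fdps at 0.05.

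Of the distal nephron lists, 3 were mostly positive, with medians of 0.18 for 10 thick ascending limb markers (9 positive), 0.19 for 5 distal convoluted and connecting tubule markers (5 positive) and 0.23 for 7 principal cell markers (5 positive). The 7 intercalated cell markers were divided, with 4 positive and 3 negative, a median of 0.015 and one of -0.125 in the CFK libraries, but 7 positive at a median of 0.12 on the deposited TPM without rescaling. The thick ascending limb median was 0.12 without male KlKl 3 and in the CFdk libraries. Without female control 3 the distal convoluted list held 3 positive and 2 negative at a median of 0.09. With heterozygous controls alone the distal convoluted median was -0.20, and in the CFK libraries -0.04. Bsnd, the barttin subunit gene of chloride channels, had a contrast of 0.34 (SE 0.11), and Slc12a1, the salt transporter gene of the thick limb, one of 0.36 (SE 0.17). Aqp4, the basolateral water channel gene of principal cells, had 0.62 (SE 0.21), with overlap in both sexes. Aqp2 and Aqp3, the other water channel genes among the principal cell markers, went the other way at -0.46 and -0.16. Bsnd and Aqp4 were already among the unequal genes selected on this contrast, so they are not separate support. Proximal tubule markers had 5 positive and 14 negative of 19 and a median of -0.14, but -0.04 without male KlKl 3, -0.06 without female control 3, 0.08 in the CFK libraries, -0.47 in the CFdk libraries and -0.01 on the deposited TPM without rescaling. Slc13a1, a sulfate transporter gene in that list, went against it at 0.56 (SE 0.26).

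Of the cell types beside tubule epithelium, the globin genes had the largest contrasts. Erythrocyte genes were positive in 4 of 5 tested members with a median of 1.95, from 1.63 in males and -0.35 in females. Without female control 3 the female median was 0.23 and the median contrast 1.31. Hba-a1, an alpha-globin gene with a near-identical copy, stood at 7.22, 10.3, 1.34 and 17.6 scaled TPM in control and 29.2, 53.9, 12.4 and 20.8 in KlKl males, and at 0.630, 14.1, 27.3 and 24 in control and 3.38, 3.32, 10.5 and 12.6 in KlKl females. Its contrast of 2.37 (SE 1.14, adjusted p = 1.0) came with controls that overlapped KlKl in both sexes. Summed erythrocyte genes were 11.86 to 123.6 in control males, 67.92 to 396.2 in KlKl males, 5.416 to 153 in control females and 20.12 to 62.41 in KlKl females. The kidneys were perfused per the labels, and whether the RNA came from blood left in the tissue was not tested. Macrophage and dendritic cell markers had 4 positive and 8 negative of 12 at a median of -0.09 (0.04 on the deposited TPM without rescaling, -0.25 with 2 positive and 10 negative without male KlKl 3, and -0.23 with 0 positive and 12 negative with heterozygous controls alone), with medians of 0.15 in males and 0.21 in females, summed to 39.78 to 55.61 in control and 42.57 to 65.45 in KlKl males and 44.49 to 54.09 and 58.05 to 70.17 in females. Endothelial markers had 5 negative of 5 at a median of -0.08, but 4 positive on the deposited TPM without rescaling. Without female control 3 they held 3 positive and 2 negative (median 0.02), and 3 were positive with heterozygous controls alone (median 0.01) and in the CFK libraries (median 0.03). Of 12 lymphocyte and neutrophil markers 0 reached the level for testing.

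Calls in the contrast appeared when single libraries were removed or weighted. With library weights, which give divergent libraries less influence, 5 genes passed, all positive: Mgst1 at 0.85 (adjusted p = 0.00713), Rarres2 at 2.11 (adjusted p = 0.011), Ces2e at 1.00 (adjusted p = 0.0326), Slc7a12 at 1.16 (adjusted p = 0.0309) and the unnamed model A930033H14Rik at 0.56 (adjusted p = 0.011). Without male KlKl 3, Rarres2 and Ces2e passed (adjusted p = 0.0146 and 0.0273), and without female control 4, Mgst1 at 1.11 and Slc7a12 at 1.55 did (adjusted p = 0.0471 each). Ces2e, a carboxylesterase gene named after its values were seen, stood at 0.888 to 1.09 scaled TPM in control males and 2.62, 2.84, 0.415 and 3.49 in KlKl males. In females it was 0.955, 0.572, 1.69 and 0.565 in controls and 0.481 to 0.580 in KlKl. Male KlKl 3 was thus below every control male while the other KlKl males were above them. Mgst1, Rarres2 and Slc7a12 kept a positive contrast in each alternative that tested them, at 0.82 to 1.36, 1.61 to 2.32 and 1.06 to 3.10, with an adjusted p between 0.00713 and 1.0 for Mgst1. All were selected on the contrast in these same libraries, so the kept sign is not independent support.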

How the data were processed

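Polyadenylated RNA was measured in kidneys of 16 mice. The authors deposited 1 table of TPM per gene and library, made with Partek on build mm39, per the submitters' processing notes, with the aligner, counting rule and annotation not given in the sources used here. Columns were matched to libraries by name, with 0 columns of other samples. The deposited TPM follow reads divided by gene length with introns, so genes with long introns have small TPM. On that relation 81.2% of values below 20 reads were whole numbers to within 0.1, and the recovered reads (8209542 to 20109426 per library) rest on that inference and limit precision by counting error only.

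TPM were scaled by median ratio over 14375 nuclear protein-coding genes with reads in every library. Genes reaching 1 TPM in 4 libraries or more were tested on log2(scaled TPM + 1), which understates differences of low genes, with limma 3.58.1 (R 4.3.3), a mean for each of the 4 groups, 12 residual degrees of freedom and a mean-variance trend. Adjusted p-values are Benjamini-Hochberg over 6116 genes, threshold 0.05. Libraries count as separate animals, and if some shared an animal the p-values would measure only the spread between samples. The fit was tested on simulated data.

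Genes named were, in each direction, the 12 with the smallest contrast p and a group mean of at least 2 scaled TPM, up to 8 of each pattern, and up to 4 members of each of 26 gene lists with the smallest contrast p. Unnamed models were left out. List examples beyond these were chosen after their values were seen. The members and lists were chosen with earlier results of these data known, and lists are described without a test. Alternatives covered pseudocount, filter, scaling, moderation, weights, block, name series, age, heterozygous controls, recovered reads (limma voom) and leaving out libraries.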

Additional observations from a re-analysis of the deposited data

Results flagged for a closer look

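In 10 of 180 groups of 4 libraries (5.56%), over the 49 named genes and counting groups in which some library reached 1 scaled TPM, 1 library stood apart from the other 3. On the log2(scaled TPM + 1) scale, its gap to the nearest exceeded the 95% limit of Dixon's test, as a part of the group's range. Chance alone meets that limit in about 1 in 20 independent groups. The groups here share libraries, and the same libraries recur below, so the total cannot be set against that rate. Male KlKl 3 stood apart as the lowest KlKl male for 4 genes, at 526 scaled TPM for Kap, 0.226 for Acsm3, 0.141 for Slc22a28 and 1.51 for Aldh3a2, a fatty aldehyde dehydrogenase gene. Female control 3 stood apart among control females for 3 genes, as the highest at 2.95 for Prlr and 2.65 for Trib1 and as the lowest at 89.1 for Slc34a1. Male control 3 was the highest control male for Slco1a1, at 8.82. Male KlKl 2 was the highest KlKl male for Pes1, at 1.86, where the whole group spanned little. Female KlKl 4 was the highest KlKl female for Sult1c2, a sulfotransferase gene, at 4.29.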

How the results depend on the processing

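The count of genes passing the contrast, 0, became 5 with weights for libraries, 1 in the CFK libraries alone and 2 without female control 3 and male KlKl 3, and ranged from 0 to 2 when each library was left out in turn (2 without male KlKl 3 or female control 4). It remained 0 in the other alternatives, among them age as a covariate and heterozygous controls alone. The replicate block also gave 0, and 3 genes in males, beside 1 without it. Same-numbered control and KlKl libraries deviated together with correlations of -0.236 to 0.249 in males and 0.06 to 0.272 in females, so the numbers were not taken to pair animals. The male count of 1 became 3 with 0.1 added, 2 with 0.5 added, 2 with a filter at 0.1 TPM or 5 TPM, 4 with no filter, 13 on the deposited TPM, 2 with upper-quartile scaling, 18 with weights, 3 with name series as a factor, 11 in the CFK libraries, 8 without both of those libraries, 7 by voom and 4 at a threshold of 0.1, and 1 to 6 without single libraries (6 without male KlKl 3, 3 without male KlKl 1 or female control 3 or 4, 2 without female control 2 or female KlKl 4). The female count of 1 became 3 with a filter at 0.1 TPM, 2 with no filter, 23 with weights, 2 in the CFK and 0 in the CFdk libraries, 2 without both of those libraries and 2 by voom, and 1 to 2 without single libraries (2 without male KlKl 3). The causes were not tested. The deposited TPM moved the median contrast over all genes from -0.02 to 0.08. Of 1644 contrast values of 49 named genes under alternatives, 1626 kept sign and side of the threshold, 11 passed with the same sign and 7 changed sign, in 3 genes. Most named genes were chosen by a small contrast p in the same libraries, which favours a kept sign. Kl became 0.29 with 0.1 added, 0.061 with weights and 0.81 by voom, Serpina1a -0.25 in the CFdk libraries, and Kap 0.0071 with weights, between -0.60 and 0.50 without single libraries (0.50 without male KlKl 3) and 0.14 without both of those libraries.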
